A study of Mus musculus with 6 samples.

Results

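The 9 genes described here encode enzymes that make asparagine, glutamate, glutamine, alanine, aspartate and proline in the mouse, together with the mitochondrial phosphoenolpyruvate carboxykinase (PEPCK). They are Asns, Gpt2, Got1, Got2, Glud1, Glul, Aldh18a1, Pycr1 and Pck2. The genes were selected on earlier results of the same table, in which the knockdown and non-silencing levels of these loci had been seen, so their levels and ratios are given as a description, with no test. A row of the deposited table was counted as a member's row when its locus in the mm10 build covered at least 0.5 of the union of locus and annotated gene. By this rule 8 of the 9 genes had a row, through 11 of the 32357 rows of the table, and Glul had none.

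The study asked which genes depend on NEUROD2, a basic helix-loop-helix transcription factor of excitatory cortical neurons. Cells of the cerebral cortex of Balb/c mouse embryos (E14.5) were nucleofected with plasmids and plated at once in a medium with serum. RNA was collected at 4 days in vitro by the labels, while the study's methods give a day more, and was sequenced as single-end reads of 50 bases. The Neurod2 knockdown group held 4 libraries, 2 that received the plasmid for shRNA-1 and 2 that received the plasmid for shRNA-2, and the non-silencing group held 2 libraries that received a plasmid with a non-silencing shRNA. All the plasmids had the pSuperneoGFP backbone, and no group without a plasmid is part of the comparison.

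The authors' table gives 1 pooled value per group in FPKM, a fragment count scaled by transcript length and by sequencing depth, so that no value has an error, the 2 shRNAs cannot be told apart, and the number of reads behind a value is unknown. Whether the libraries came from separate cultures is not stated. Neurod2, the targeted gene, was at 60.3 FPKM in the Neurod2 knockdown and at 104.8 FPKM in the non-silencing group, a log2 ratio of -0.80. The authors' program marked 13498 rows as tested, and each is counted here as a locus. Of these, 12608 had both values above 0 and a mean of at least 1 FPKM, and these are the loci used for comparison. Among them the median log2 ratio of Neurod2 knockdown over non-silencing was -0.03, and the standard deviation across loci was 0.32.

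The enzymes are linked through glutamate. Glutamate dehydrogenase and the aminotransferases move nitrogen between glutamate and the keto acids of central metabolism, glutamine synthetase adds a further nitrogen, asparagine synthetase passes that nitrogen on to aspartate, and a separate branch turns the carbon chain of glutamate into proline. In the brain, glutamine synthetase is known as an astrocyte enzyme, and the glutamine it makes is a source of neuronal glutamate. Several of these genes, Asns foremost, are known targets of ATF4, a transcription factor that cells make when amino acids run short or when the endoplasmic reticulum is under stress.

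Among the 8 enzyme genes with a tested row, Pck2 and Asns were over 1.5-fold lower in the Neurod2 knockdown and none was over 1.5-fold higher. With ratios centred on the median of all loci, Asns was at -0.58, short of the limit, and 1 gene, Pck2, was over 1.5-fold lower. Over all 12608 loci 2.02% were over 1.5-fold lower and 1.35% were over 1.5-fold higher. Because the genes were picked from this same contrast, nothing is read from their count against that share. The median log2 ratio of the 8 genes was -0.33, with a range of -1.09 to 0.10, and 5 of the 8 had a ratio below 0, as had 58.4% of all loci. Asns, at 1.53-fold lower, lay just inside the 1.5-fold limit, and Aldh18a1, at 1.40-fold lower, lay just outside it.

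**Figure D1:**
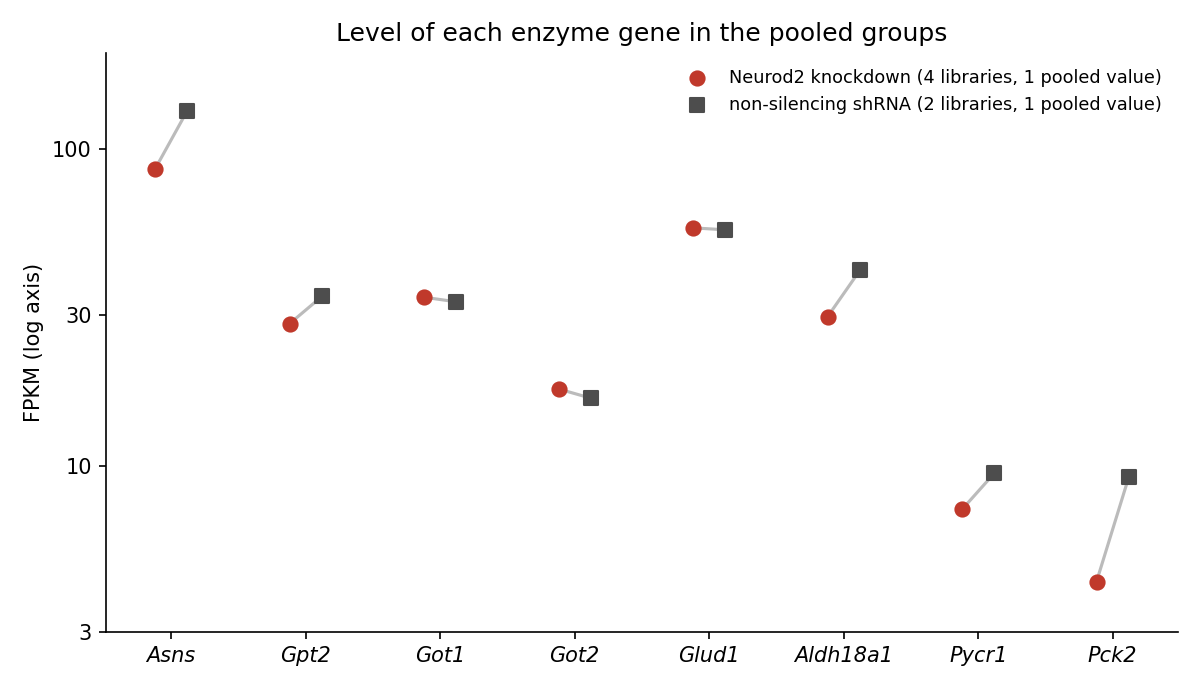
The authors' pooled FPKM (log axis) of each enzyme gene in the Neurod2 knockdown (circles) and in the non-silencing group (squares), 1 value per group and therefore without error bars. The line drops toward the knockdown circle for Asns, Gpt2, Aldh18a1, Pycr1 and Pck2, most steeply for Pck2 (4.32 against 9.23 FPKM), and is nearly level for Got1, Got2 and Glud1.

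Asns encodes asparagine synthetase, which makes asparagine from aspartate and glutamine and releases glutamate. The gene lies at chr6:7675169-7693254 on the minus strand and has 12 exons, with a transcript of 2016 bases of which 1683 are coding. It was the most abundant of the 8 measured enzyme transcripts in both groups, at 86.2 FPKM in the Neurod2 knockdown and 131.6 FPKM in the non-silencing group. Its log2 ratio of -0.61 was lower than that of all but 1.94% of the tested loci. Set only against the 1241 loci whose mean level was within 2-fold of its own, 47 loci (3.79%) had a lower ratio.

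Pck2 encodes the mitochondrial form of PEPCK, which turns oxaloacetate into phosphoenolpyruvate. It lies at chr14:55540266-55551242 on the plus strand and has 10 exons. It was the least abundant of the 8 measured enzyme transcripts and the one with the lowest ratio, with 4.32 FPKM in the Neurod2 knockdown against 9.23 FPKM in the non-silencing group, which is 2.14-fold lower (log2 ratio -1.09). Only 0.587% of all tested loci, and 10 of the 4463 loci at a similar level, had a lower ratio. An annotated antisense gene, Gm10876, overlaps Pck2, and it is not stated that reads were counted by strand, so that reads of the antisense gene could be part of both values. Pck1, the gene of the cytosolic form, was not tested by the authors' program and was listed at 0.0183 FPKM in the Neurod2 knockdown and at 0 in the non-silencing group.

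The enzymes of proline synthesis come next in the order of ratios. Aldh18a1 encodes the enzyme that opens the pathway by turning glutamate into the semialdehyde that closes to pyrroline-5-carboxylate. It lies at chr19:40550257-40588463 on the minus strand, has 19 exons, and contains a processed pseudogene, Gm15801. Its tested row was at 29.5 FPKM in the Neurod2 knockdown and 41.3 FPKM in the non-silencing group (log2 ratio -0.48), and a further row of the gene was listed at 0 in both groups. This ratio missed the 1.5-fold limit, and 75 of the 3794 loci at a similar level (1.98%) had a lower one.

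Pycr1 encodes a mitochondrial reductase for the last step, from pyrroline-5-carboxylate to proline, and lies at chr11:120635712-120643769 on the minus strand with 8 exons. It was at 7.29 FPKM in the Neurod2 knockdown and at 9.49 FPKM in the non-silencing group, a log2 ratio of -0.38 or 1.30-fold lower, which did not pass the limit. Of the 4810 loci at a similar level, 107 (2.22%) had a lower ratio. Both proline genes were thus below the non-silencing level by less than 1.5-fold, and the ratio of Aldh18a1 to Pycr1 was 4.05 in the Neurod2 knockdown and 4.35 in the non-silencing group.

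Pycr3, a paralog that encodes the cytosolic reductase for the same step, was at 21.4 FPKM in the Neurod2 knockdown and 22.5 FPKM in the non-silencing group (log2 ratio -0.08). Its transcript was more abundant than that of Pycr1 in both groups. Whether the ratios of the 2 genes differ beyond the spread between libraries was not tested, since the pooled values carry no spread.

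The aminotransferases were closer to the median of all loci. Gpt2 encodes the mitochondrial alanine aminotransferase, which moves an amino group between glutamate and pyruvate, and lies at chr8:85492576-85527560 on the plus strand with 12 exons. It was at 28.1 FPKM in the Neurod2 knockdown and at 34.2 FPKM in the non-silencing group (log2 ratio -0.28, or 1.22-fold lower), and 6.85% of all tested loci had a lower ratio. Among the 4114 loci at a similar level, 172 (4.18%) had a lower ratio, a share near that of Asns (3.79%). Gpt, which encodes the cytosolic form, was at 3.59 FPKM in the Neurod2 knockdown and 3.78 FPKM in the non-silencing group (log2 ratio -0.07). Neither alanine aminotransferase gene passed the limit.

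Got1 and Got2 encode the cytosolic and the mitochondrial aspartate aminotransferases, which work on the 2 sides of the malate-aspartate shuttle. Got1 (chr19:43499752-43524605, minus strand, 9 exons) was at 34.0 FPKM in the Neurod2 knockdown and at 32.9 FPKM in the non-silencing group, a log2 ratio of 0.05. Got2 (chr8:95864134-95888547, minus strand, 10 exons) had 3 rows, and the most abundant was at 17.5 FPKM in the Neurod2 knockdown and 16.4 FPKM in the non-silencing group (log2 ratio 0.10). The other tested row was at 7.55 FPKM in the Neurod2 knockdown and 7.41 FPKM in the non-silencing group (log2 ratio 0.03). The untested row was listed at 0.136 FPKM in the Neurod2 knockdown and at 0 in the non-silencing group. Summed over the 3 rows, which share a locus, the level was 25.2 FPKM in the Neurod2 knockdown and 23.8 FPKM in the non-silencing group. An annotated gene on the plus strand, Gm45760, overlaps Got2, and whether a row or some of its reads belong to Gm45760 is not known. The ratio of Got1 to the most abundant row of Got2 was 1.95 in the Neurod2 knockdown and 2.01 in the non-silencing group, so both transcripts kept nearly the same proportion.

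The values of the most abundant Got2 row rest on a repair. A spreadsheet had turned both of its FPKM cells into clock times, each with 27 possible readings, and only the table's own log2 ratio column chose among them. Its ratio is therefore the one the table already held. The other tested row, which had not been altered, had a ratio on the same side of 0.

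Glud1 encodes mitochondrial glutamate dehydrogenase, which joins glutamate to the citric acid cycle through its keto acid. It lies at chr14:34310727-34345265 on the plus strand and has 13 exons. It was next to Asns the most abundant of the 8 measured enzyme transcripts, at 56.3 FPKM in the Neurod2 knockdown and 55.5 FPKM in the non-silencing group, and its log2 ratio of 0.02 was the one nearest to 0. Got1, Got2 and Glud1 were the genes with a ratio above 0, and 64.5% to 80.5% of all tested loci had a ratio below theirs.

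Glul, the gene of glutamine synthetase, could not be measured by the rule. The gene lies at chr1:153899944-153909723 on the plus strand, with 7 exons, and shares its place with Teddm2 and Mir8114. The 4 rows that reach it share 1 locus of 60182 bases, and the overlap was 0.163 of the union. Of these rows, 2 were tested. The most abundant was at 119.7 FPKM in the Neurod2 knockdown and 132.9 FPKM in the non-silencing group (log2 ratio -0.15). The other tested row was at 1.39 FPKM in the Neurod2 knockdown and 1.07 FPKM in the non-silencing group. Which of these rows holds the Glul transcript cannot be read from the table, and no value is given to the gene here.

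Since FPKM is scaled by transcript length, the levels of the 8 measured genes can be ordered. In the non-silencing group the order ran from Asns through Glud1, Aldh18a1, Gpt2, Got1, Got2 and Pycr1 to Pck2. In the Neurod2 knockdown Got1 had rank 3, before Aldh18a1 and Gpt2, and the other genes kept their ranks. Gpt2 and Got1, at 34.2 and 32.9 FPKM, and Pycr1 and Pck2, at 9.49 and 9.23 FPKM, were the closest neighbours in the non-silencing group, and without replicate values it cannot be said whether neighbours differ beyond their spread. The distance between Asns and the genes near a ratio of 0 was smaller in the knockdown. The Asns level was 1.53 times that of Glud1 and 2.53 times that of Got1 in the Neurod2 knockdown, and 2.37 times and 4.00 times in the non-silencing group. Relative to Pck2, the Asns level was 19.9 times in the Neurod2 knockdown and 14.3 times in the non-silencing group.

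**Figure D2:**
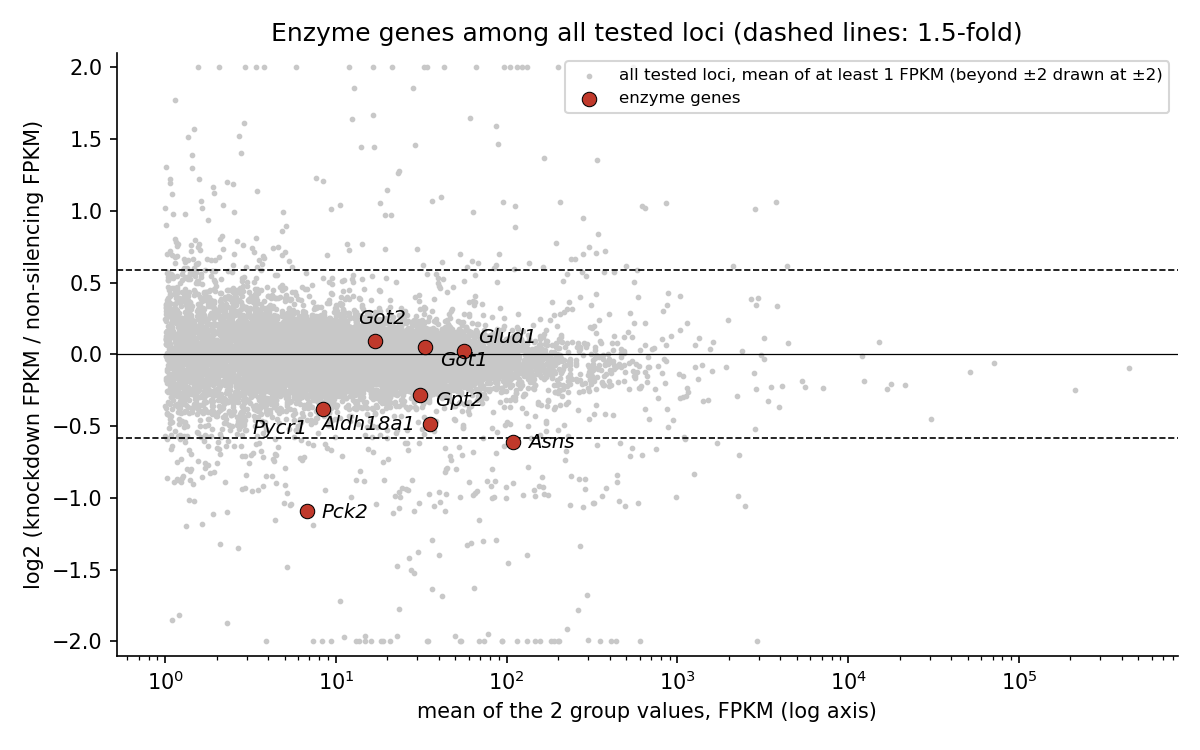
The log2 ratio of Neurod2 knockdown over non-silencing FPKM (vertical axis) against the mean of both group values in FPKM (log axis) for the 12608 tested loci (grey) and the 8 enzyme genes (red), with dashed lines at 1.5-fold. Pck2 and Asns lie below the lower line, Aldh18a1 lies just above it, and Got1, Got2 and Glud1 lie within the dense band around 0.

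The promoters of the 9 genes were searched because ATF4 is known to bind an amino acid response element and NEUROD2 is known to bind E-boxes. The sequences were the 250 bases before each RefSeq start site in GRCm38.p6, the same assembly as mm10, and all 9 genes had one. The element was searched by its core TGATGNAA and the E-boxes as CAGATG and CAGCTG, on both strands. The core was found in 4 of the 9 promoters, those of Asns, Got1, Pycr1 and Pck2, and in 3.45% of the 32851 RefSeq promoters of the same length. Several of these genes are known ATF4 targets, and all were picked from this same contrast. Nothing is therefore read from their count against that share. The stretches with the match are shown because they contain the only copies in these windows, with the 8 bases of the match in capitals, in the direction of the gene.
Asns, chr6:7693214-7693243, minus strand: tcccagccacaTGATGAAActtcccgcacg
Got1, chr19:43524684-43524723, minus strand: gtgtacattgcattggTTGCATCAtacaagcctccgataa
Pycr1, chr11:120643828-120643867, minus strand: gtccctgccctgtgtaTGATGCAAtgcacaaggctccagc
Pck2, chr14:55540147-55540186, plus strand: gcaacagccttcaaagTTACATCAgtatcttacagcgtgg

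In Asns the match ran along the gene's own strand, from 23 to 16 bases before the RefSeq start site. By the annotation used for the gene's coordinates (chr6:7675169-7693254), this place lies inside the Asns gene and not before it. In Pycr1 it also ran along the gene's strand, 103 to 96 bases before the start. In Got1 and Pck2 it lay on the opposite strand, 102 to 95 bases and 103 to 96 bases before the start. The match was thus present in both genes over the 1.5-fold limit, in Pycr1, which was 1.30-fold lower, and in Got1, whose log2 ratio was 0.05. Aldh18a1, at 1.40-fold lower, had no match in its window, and neither had Gpt2, Got2, Glud1 or Glul. A match is a run of letters, and binding at these places was not measured here.

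The whole stretch before the start of Pck2, the gene with the lowest ratio, is shown with the same match in capitals.
Pck2, chr14:55540016-55540265, plus strand: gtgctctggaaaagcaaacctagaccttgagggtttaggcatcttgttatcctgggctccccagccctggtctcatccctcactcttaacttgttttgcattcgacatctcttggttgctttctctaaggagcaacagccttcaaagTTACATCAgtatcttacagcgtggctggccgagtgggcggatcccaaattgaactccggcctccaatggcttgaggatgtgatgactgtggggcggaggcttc

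E-box letters were found in other windows. CAGATG was present only in Glud1, on the opposite strand 116 to 111 bases before the start, and it is found in 14.4% of all promoters of this length. CAGCTG was present in Got2, Glul and Pycr1, at 230 to 225, 85 to 80 and 83 to 78 bases before the start, and it is found in 13.0% of all promoters. Neither of these E-box spellings was in the windows of Asns, Gpt2, Got1, Aldh18a1 and Pck2. The study had found most NEUROD2 binding sites away from promoters, and sequence outside these windows was not searched.

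**Figure D3:**
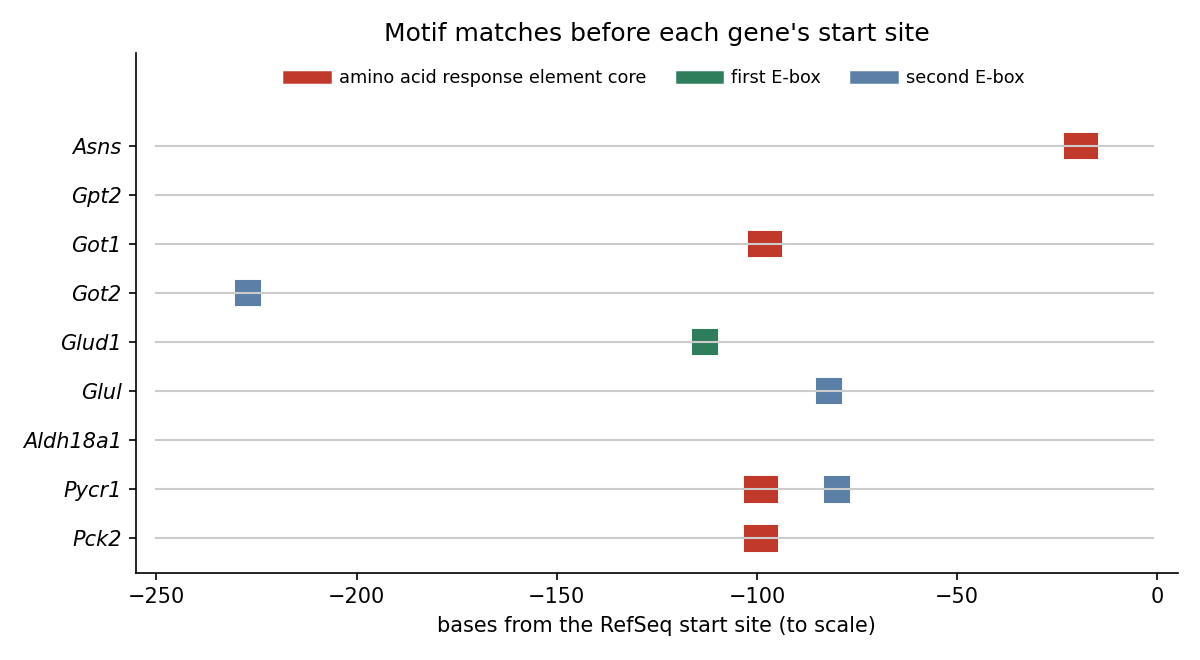
Positions of matches to the amino acid response element core (red), to CAGATG (first E-box, green) and to CAGCTG (second E-box, blue) in the 250 bases before the RefSeq start site of each gene, to scale. The core lies near 100 bases before the start in Got1, Pycr1 and Pck2 and within the last 23 bases in Asns.

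Other genes of the same metabolism were read from 4 lists. Together the lists of asparagine and aspartate, glutamate and glutamine, alanine and phosphoenolpyruvate, and proline and ornithine enzymes named 64 further genes reported here, of which 41 had a tested locus of their own, above the level limit and with both group values above 0. None of the 41 was over 1.5-fold lower, beside 2.02% of all loci, and 28 had a ratio below 0, as had 58.4% of all loci. The median log2 ratio was -0.06, beside -0.03 for all loci. The lists were written with earlier results of these data known.

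In the asparagine and aspartate list, 7 of 16 genes could be used and their median log2 ratio was -0.09. Asl, the argininosuccinate lyase, was not among the 7, because its most abundant row was listed at 0 in the Neurod2 knockdown and at 154.8 FPKM in the non-silencing group. A second tested row at the same locus was at 3.72 FPKM in the Neurod2 knockdown and 2.95 FPKM in the non-silencing group (log2 ratio 0.33), so the rows of Asl lay on opposite sides. The most abundant was Nars, the cytosolic asparaginyl-tRNA synthetase that uses the product of Asns, at 90.9 FPKM in the Neurod2 knockdown and 117.2 FPKM in the non-silencing group (log2 ratio -0.37). Adss, an enzyme that joins aspartate to inosine monophosphate, was at 62.9 FPKM in the Neurod2 knockdown and 59.9 FPKM in the non-silencing group. Neither Nars nor Adss passed the limit. The locus at Asnsd1, a gene with an asparagine synthetase domain, did not meet the overlap rule, nor did those at Got1l1, a gene related to Got1, and Psat1, the phosphoserine aminotransferase that uses glutamate.

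In the glutamate and glutamine list, 17 of 24 genes could be used, none passed the limit in either direction, and the median log2 ratio was 0.01. Bcat1, the cytosolic branched-chain aminotransferase, was at 64.2 FPKM in the Neurod2 knockdown and 77.6 FPKM in the non-silencing group (log2 ratio -0.27). Ppat, which takes nitrogen from glutamine for purine synthesis, was at 67.6 FPKM in the Neurod2 knockdown and 68.9 FPKM in the non-silencing group. The usable enzymes of this list were thus spread around 0, with 8 of the 17 below it. Psat1 was not among them, as the overlap at its locus was 0.467, short of the rule. The tested row there was at 81.7 FPKM in the Neurod2 knockdown and 114.8 FPKM in the non-silencing group (log2 ratio -0.49). Of all tested loci, 2.66% had a lower ratio than this row.

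In the alanine and phosphoenolpyruvate list, 10 of 14 genes could be used, none passed the limit, and the median log2 ratio was -0.07. Pkm, the pyruvate kinase that uses phosphoenolpyruvate, was at 150.7 FPKM in the Neurod2 knockdown and 167.8 FPKM in the non-silencing group (log2 ratio -0.16). Mdh1, the cytosolic malate dehydrogenase that works beside Got1, was at 116.8 FPKM in the Neurod2 knockdown and 118.6 FPKM in the non-silencing group. Pcx, the pyruvate carboxylase that makes the oxaloacetate used by Pck2, had a row at 40.2 FPKM in the Neurod2 knockdown and 44.2 FPKM in the non-silencing group (log2 ratio -0.14), and another at 15.97 FPKM in the Neurod2 knockdown and 14.8 FPKM in the non-silencing group (log2 ratio 0.11). Pck2 was the lowest of these genes by ratio.

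In the proline and ornithine list, 9 of 12 genes could be used, none was over 1.5-fold lower, and the median log2 ratio was -0.08. P4hb, a subunit of the enzyme that hydroxylates proline in collagen, was at 256 FPKM in the Neurod2 knockdown and 295 FPKM in the non-silencing group (log2 ratio -0.20). Arg2, the mitochondrial arginase, was at 72.3 FPKM in the Neurod2 knockdown and 76.3 FPKM in the non-silencing group (log2 ratio -0.08). These most abundant genes of the list did not pass the limit. Oat, which links ornithine to pyrroline-5-carboxylate, was at 59.95 FPKM in the Neurod2 knockdown and 61.4 FPKM in the non-silencing group (log2 ratio -0.04). Aldh4a1, which returns proline carbon to glutamate, was at 7.42 FPKM in the Neurod2 knockdown and 6.95 FPKM in the non-silencing group, and it had an untested row at 52.6 FPKM in the Neurod2 knockdown that was listed at 0 in the non-silencing group. The locus of Prodh, which begins proline breakdown, is shared with Dgcr6 and was not assigned. Among carriers of glutamate, aspartate and glutamine, 17 of 22 could be used, none passed the limit and the median log2 ratio was -0.03. Slc38a2, a glutamine carrier, was at 84.9 FPKM in the Neurod2 knockdown and 94.5 FPKM in the non-silencing group, and Slc1a3, a glial glutamate carrier, was at 90.4 FPKM in the Neurod2 knockdown and 87.5 FPKM in the non-silencing group.

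A list of Atf4 and of other genes known to respond to ATF4 stood lower. Of 30 genes 22 could be used, and 9 were over 1.5-fold lower, none was over 1.5-fold higher, 21 had a ratio below 0 and the median log2 ratio was -0.52. Over all 12608 loci 2.02% were over 1.5-fold lower, 1.35% were over 1.5-fold higher and 58.4% had a ratio below 0. Slc7a3, a carrier of cationic amino acids, was at 15.1 FPKM in the Neurod2 knockdown and 31.8 FPKM in the non-silencing group (log2 ratio -1.07). Eif4ebp1, an inhibitor of cap-dependent translation, was at 11.2 FPKM in the Neurod2 knockdown and 23.1 FPKM in the non-silencing group (log2 ratio -1.04). The ratio of Pck2 lay beside these, and that of Asns lay between the median of this list and its lowest genes. Trib3, a pseudokinase that binds ATF4, was at 0.971 FPKM in the Neurod2 knockdown and 1.97 FPKM in the non-silencing group (log2 ratio -1.02). Chac1, which degrades glutathione, was at 15.8 FPKM in the Neurod2 knockdown and 30.8 FPKM in the non-silencing group (log2 ratio -0.96). Atf4 itself, which is counted among the 22, was at 150.3 FPKM in the Neurod2 knockdown and 193.3 FPKM in the non-silencing group (log2 ratio -0.36), short of the limit. This list was also written with earlier results known, so its count is no independent evidence of a direction.

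**Figure D4:**
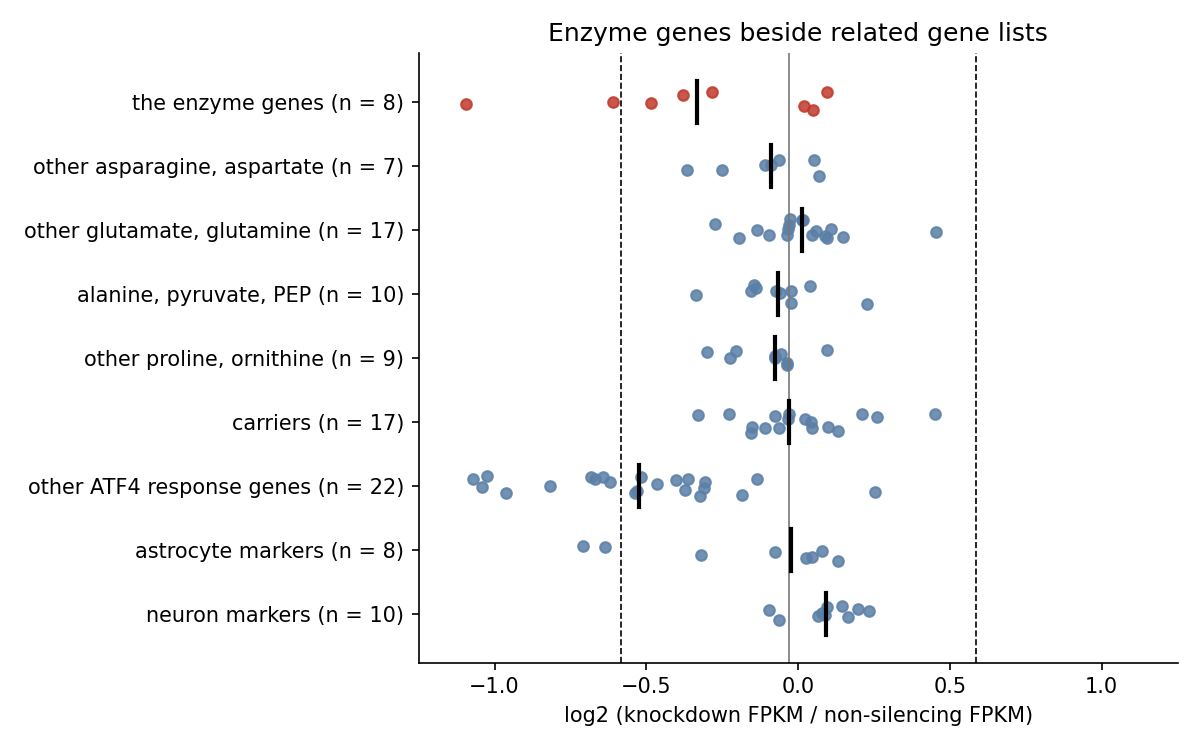
Log2 ratios of Neurod2 knockdown over non-silencing FPKM for the 8 enzyme genes (red) and for the usable genes of the related lists (blue), 1 point per gene, with the median of each list as a thick bar, dashed lines at 1.5-fold and a grey line at the median of all tested loci. The median of the enzyme genes (-0.33) lies between those of the metabolism lists (-0.09 to 0.01) and that of the list of Atf4 and other ATF4 response genes (-0.52). The single enzyme genes are spread wider. Pck2 and Asns lie below the median of the ATF4 list, and Got1, Got2 and Glud1 lie above 0.

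In bulk RNA, fewer cells of a type and less RNA per cell cannot be told apart, and markers of the cell types in such a culture are therefore given beside the enzymes. All 10 neuron markers could be used, none passed the limit, and their summed level was 2320 FPKM in the Neurod2 knockdown and 2168 FPKM in the non-silencing group. The most abundant were Tubb3, at 879 FPKM in the Neurod2 knockdown and 839 FPKM in the non-silencing group, and Stmn2, at 363 FPKM in the Neurod2 knockdown and 339.8 FPKM in the non-silencing group. The culture thus carried neuron markers at high levels in both groups. The astrocyte markers, of which 8 of 12 could be used, summed to 339 FPKM in the Neurod2 knockdown and 395 FPKM in the non-silencing group. Of these 8, Gfap and Apoe were over 1.5-fold lower, beside 2.02% of all loci. Gfap was at 35.1 FPKM in the Neurod2 knockdown and 57.4 FPKM in the non-silencing group (log2 ratio -0.71). Apoe was at 75.0 FPKM in the Neurod2 knockdown and 116.6 FPKM in the non-silencing group (log2 ratio -0.64). The other 6 did not pass the limit and the median of the list was -0.02. Slc1a3 (0.05), Aldoc (0.13), Fgfr3 (0.08) and Sox9 (0.03) had log2 ratios above 0, and Slc1a2 (-0.08) and Gja1 (-0.32) below it. The astrocyte markers thus went in both directions, and the part of astrocytes in the enzyme values was not tested.

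Of the other cell types, the 8 oligodendrocyte lineage markers and the 6 usable progenitor markers of 8 had none past the limit, with medians of -0.08 and -0.06. Of the oligodendrocyte lineage markers 7 had a log2 ratio below 0, with a range of -0.49 to 0.04. Of the progenitor markers 4 had one below 0, with a range of -0.39 to 0.05. Over all loci the share below 0 was 58.4%. Olig1 was at 52.4 FPKM in the Neurod2 knockdown and 56.4 FPKM in the non-silencing group, and Olig2 was at 36.9 FPKM in both. Vim was at 139.99 FPKM in the Neurod2 knockdown and 141.6 FPKM in the non-silencing group, and Top2a was at 70.05 FPKM in the Neurod2 knockdown and 69.0 FPKM in the non-silencing group. None of the 10 microglia markers had a tested locus. Mesenchymal markers, of which 8 of 10 had values, summed to 13.0 FPKM in the Neurod2 knockdown and 8.63 FPKM in the non-silencing group, and none of the 8 was at 0 in either group. Of the 4 above the level limit, Thbs1 was over 1.5-fold higher, beside 1.35% of all loci. Thbs1 was at 3.38 FPKM in the Neurod2 knockdown and 1.70 FPKM in the non-silencing group. The 4 below the level limit were Col1a1, Col3a1, Acta2 and Postn. They were at 0.765 to 1.28 FPKM in the Neurod2 knockdown and 0.125 to 0.409 FPKM in the non-silencing group. The part of these cells in the enzyme values was not tested either.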

How the data were processed

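RNA of 6 libraries was sequenced, and the authors used TopHat for mapping (mm10), Cufflinks for assembly and Cuffdiff for the comparison of groups, with versions not given in the sources used here. Their deposited table holds 1 pooled FPKM value per group and locus. It also holds the authors' log2 fold change, test statistic, p-value and q-value for each locus. The test statistic, p-value and q-value were not used, and the log2 column served only to choose among readings of altered cells. Spreadsheet software had turned many FPKM cells into times. Of the 13498 tested loci, 8556 had plain values, 4910 were restored to the pair of readings that gave the listed log2 value within 2e-05, and 32 could not be restored. In 87 a group was at 0. Where the log2 column chose the readings, the ratio used here is the one that column held, also among the comparison loci and in the lists. The restoration was tested on simulated cells, which were altered by the rule it assumes and restored with the same log2 constraint.

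Loci were matched to genes by position (GENCODE M21), since the overlap rule of 0.5 of the union fixes the members. A gene with several tested rows was represented by the most abundant. The log2 ratio is Neurod2 knockdown over non-silencing, with no pseudocount, and a limit of 1.5-fold was used with a mean of at least 1 FPKM. The 9 members and Neurod2 were named, with fixed paralogs and partner enzymes. Some genes, including 2 of the lists, are not reported here, and all counts and medians of the lists are without them. In each list the genes over the limit were named, up to the 4 with the log2 ratios farthest from 0, and otherwise the 2 most abundant. Nars, Adss and the like entered by that rule, and Atf4 and Asl were named in addition, after their values were seen. Members and lists were chosen with earlier results of these data known. Pseudocounts of 1 and 0.1 FPKM, an overlap of 0.8, centring on the median of all loci, limits of 1.25-fold and 2-fold, no level limit, a mean of at least 10 FPKM and, chosen after seeing the data, summing all rows of a gene were tried. No test was made, since the table has 1 value per group. Promoter sequences came from RefSeq (GRCm38.p6). Python 3.11.15, pandas 2.3.3, NumPy 2.4.6 and matplotlib 3.10.9 were used.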

Additional observations from a re-analysis of the deposited data

How the results depend on the processing

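The log2 ratios of the 8 measured enzyme genes kept their sign and their side of the 1.5-fold limit with pseudocounts of 1 and 0.1 FPKM, with an overlap of 0.8 and with all rows of a gene summed. Centring on the median of all loci (-0.03) put Asns at -0.58, just short of the limit, so that 1 gene was over 1.5-fold lower. With the lowest limit tried 4 genes were lower (5.54% of all loci), and with a limit of 2-fold 1 gene was lower (0.769% of all loci). No gene was past the limit on the higher side under any of these settings. The median log2 ratio of the 8 genes stayed between -0.33 and -0.30. Without the log2 column of the table, the readings of the Got2 cells would allow a log2 ratio from -6.99 to 7.76. No paired analysis was possible because the table pools the libraries of a group, and leaving out a library or separating shRNA-1 from shRNA-2 was not run for the same reason. The pooled values carry no replicate error and the depth behind them is unknown, which limits every ratio given here.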
